A study of Mus musculus with 8 samples.

Results

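The genes described here encode antibodies: the immunoglobulin heavy chain constant and variable genes, the kappa and lambda light chain constant and variable genes, and 3 genes of antibody assembly and secretion, Jchain, Mzb1 and Derl3. They were taken by gene symbol from a table of gene expression, which gave 178 of its 32098 genes. Of the 178, 8 were heavy chain constant genes, 76 were heavy chain variable segments (Ighv), 84 were kappa variable segments (Igkv), 3 were lambda variable segments (Iglv), 1 was Igkc and 3 were lambda constant genes (Iglc1, Iglc2 and Iglc3). The annotation lists 151 of the variable segments as functional and 12 as pseudogenes. The rule itself uses symbols and no measured value, but all 32098 genes of the table were above 0 in at least 1 tumour. An antibody gene at 0 in all 8 tumours would thus not be among the 178.

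The samples were 8 mouse tumours of 4T1, a line of murine breast cancer cells, all labelled wild type. In 4 of them, ICI 1 to ICI 4, the treatment was an immune checkpoint inhibitor, a drug that blocks an inhibitory receptor of T cells or its ligand. In the other 4, RI 1, RI 2, RI 4 and RI 5, the inhibitor was combined with radiation. All 8 tumours had therefore received an inhibitor, and no untreated or irradiated-only tumour enters the comparison, which asks what radiation adds. The labels name neither the drug nor the radiation dose, the time of harvest, the host strain or its age, and they do not say that the tumours came from separate animals, so the p-values measure only the spread between these 8 samples. Each sample was bulk tumour RNA, in which fewer antibody-producing cells and less antibody RNA per cell cannot be told apart.

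An antibody is built from 2 kinds of protein chain. A B cell joins 1 variable segment to short D or J segments in each chain locus, and the joined exon is spliced to a constant gene. The heavy chain constant gene sets the isotype: naive B cells make IgM and IgD from Ighm and Ighd, and class switching replaces these with an IgG, IgE or IgA gene. Light chains are kappa (Igkc) or lambda, and most mouse antibodies carry kappa. Plasma cells, the secreting stage, fill much of their messenger RNA pool with immunoglobulin transcripts, and because every clone uses 1 heavy and usually 1 light chain segment, the mix of segments reflects the mix of clones. The J chain joins IgA and IgM into polymers, Mzb1 is an endoplasmic reticulum protein of B and plasma cells that helps antibody assembly, and Derl3 acts in the removal of misfolded proteins.

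The variable segments on which the results turn are shown by their last 75 transcribed bases before the join, 5′ to 3′ on the coding strand, from GENCODE M21 transcripts on GRCm38. They comprise the leading segment of each tumour, the segments tested between the groups, and Ighv1-9 and Ighv2-9, the highest heavy chain segments of ICI 1 and of RI 2 and RI 5. Capitals mark the motif TANTNNTGN, read on the coding strand, which covers the codons for the tyrosine-tyrosine-cysteine or tyrosine-phenylalanine-cysteine end of framework 3. It stood in the last 75 bases of 148 of the 151 functional segments (98.0%), of 9 of the 12 pseudogenes (75%) and of 7.70% of all annotated transcripts. The bases after the capitals begin the third complementarity-determining region, the part of the antigen-binding site that differs most between clones.
Igkv3-4, chr6:70671788-70672377, plus strand: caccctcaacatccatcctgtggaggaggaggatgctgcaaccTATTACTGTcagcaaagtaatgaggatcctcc
Igkv10-96, chr6:68631963-68632442, minus strand: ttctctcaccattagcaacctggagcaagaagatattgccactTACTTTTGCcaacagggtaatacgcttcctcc
Igkv14-126, chr6:67896172-67896642, plus strand: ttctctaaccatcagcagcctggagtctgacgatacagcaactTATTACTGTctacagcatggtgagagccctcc
Igkv3-10, chr6:70572633-70573230, plus strand: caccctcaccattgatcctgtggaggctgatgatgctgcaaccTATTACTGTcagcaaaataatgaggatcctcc
Igkv3-2, chr6:70698449-70699067, plus strand: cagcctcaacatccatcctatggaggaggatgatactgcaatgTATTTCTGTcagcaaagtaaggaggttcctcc
Iglv1, chr16:19085017-19085500, minus strand: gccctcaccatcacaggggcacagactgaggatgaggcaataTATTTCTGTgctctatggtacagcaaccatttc
Ighv1-9, chr12:114583569-114584002, minus strand: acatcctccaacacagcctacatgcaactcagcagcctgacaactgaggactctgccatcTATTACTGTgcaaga
Ighv2-9, chr12:113879096-113879541, minus strand: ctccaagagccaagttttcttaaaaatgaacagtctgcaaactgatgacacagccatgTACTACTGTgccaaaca

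These are reference sequences, not sequences read from the tumours, and the bases added at the joins are not in the table. Several segments have close copies, so the authors' counting could have split or shared their reads. Over the aligned transcript Igkv3-10 is 98.3% identical to Igkv3-5, Iglv1 is 96.7% identical to Iglv2 and Igkv10-96 is 95.4% identical to Igkv10-94. The 3 family members Igkv3-4, Igkv3-10 and Igkv3-2 share 91.1% to 91.4% of their bases with each other, while Igkv3-4 and Igkv10-96 share 66.5%.

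The lambda constant genes fall into a close pair and a more distant gene, and they are shown because only Iglc1 was high enough to be tested between the groups. The stretches below are 90 matching bases from each transcript, with capitals at the positions where the 3 are not all alike.
Iglc1, chr16:19061618-19062071, minus strand: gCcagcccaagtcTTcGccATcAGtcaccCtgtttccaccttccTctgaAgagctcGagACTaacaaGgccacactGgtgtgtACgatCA
Iglc2, chr16:19198396-19200351, minus strand: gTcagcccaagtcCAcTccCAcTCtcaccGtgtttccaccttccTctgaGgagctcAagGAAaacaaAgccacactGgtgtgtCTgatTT
Iglc3, chr16:19065230-19065681, minus strand: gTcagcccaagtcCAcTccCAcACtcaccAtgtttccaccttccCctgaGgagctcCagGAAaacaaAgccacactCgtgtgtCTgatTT

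In this stretch Iglc2 differs from Iglc1 at 19 positions and Iglc3 differs from Iglc1 at 20, but Iglc2 and Iglc3 differ from each other at 5. Over the aligned transcripts Iglc1 is 69.5% identical to Iglc2 and 70.7% to Iglc3, and the pair Iglc2 and Iglc3 is 95.3% identical. Reads of Iglc2 and Iglc3 are therefore the harder to assign to 1 gene.

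Values are FPKM, fragment numbers divided by gene length and library size, and the libraries held 27013060 to 42622664 fragments. Members took 60676 fragments in ICI 1, 4153 in ICI 2, 3074 in ICI 3 and 6214 in ICI 4, and 229 in RI 1, 1383 in RI 2, 485 in RI 4 and 2500 in RI 5. The range was thus 0.184% of all fragments in ICI 1, 0.00838% to 0.0146% in the other 3 ICI tumours and 0.000848% to 0.00587% in the RI tumours. ICI 1 stood apart over much of the transcriptome: a list of 14 neutrophil genes summed to 24159 FPKM there, where the other ICI tumours had 293 to 759 and the RI tumours 119 to 320. In RI 4, 3 genes (Gm55118, Rn18s-rs5 and Gm55094) made up 60.7% of all summed FPKM, against 0.968% to 2.25% elsewhere. For this reason the members tested are given with and without ICI 1, and without both tumours where that changes a call.

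Summed over the 12 constant genes, antibody RNA was lower in every tumour given radiation with the inhibitor than in every tumour given the inhibitor alone: 1873, 82.0, 66.1 and 121 FPKM in ICI 1 to ICI 4 and 5.41, 25.2, 8.81 and 40.0 in RI 1, RI 2, RI 4 and RI 5. The test used genes that reached 1 FPKM in 4 or more tumours, with limma on log2(FPKM + 1), and a gene was called changed at a Benjamini-Hochberg adjusted p under 0.05 over all 13439 genes tested. Of the 178 members 9 were tested, and the other 169 were too low. Of the 9, Igkc, Igha and Iglc1 were lower in RI and 0 were higher, where 17.7% of all genes tested were called, 6.6% as lower and 11.1% as higher. Iglc1 was tested only because the ICI tumours passed the limit, so it had to differ and adds no support. The median of the 9 log2 differences was -2.10, beside 0.01 for all genes tested, a comparison that carries the same limit. Over all 178 members, 143 had a lower mean in RI than in ICI, as did 17805 of the 32098 genes of the table. Without ICI 1, 6 of the 9 were called lower, Igha, Ighg2c, Igkc, Iglc1, Iglv1 and Jchain, with 8.29% of all genes called lower. Without both ICI 1 and RI 4 it was 4 of the 9, Igkc, Igha, Iglc1 and Jchain, with 7.88% of all genes called lower. In both counts Iglc1 adds no support. The ICI values alone also brought Ighg2c, Iglv1 and Jchain past the limit. In RI, Ighg2c reached 1 FPKM only in RI 2, Iglv1 only in RI 5, and Jchain only in RI 2 and RI 5. These counts are therefore not evidence of an excess among members. With ICI 1 alone left out, a lower mean in RI was found for 103 of 178 members (57.9%) and 46.0% of all genes.

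The kappa constant gene Igkc, a single exon of 532 bases at chr6:70726435-70726966, was the most abundant member in each of the 8 tumours. It measured 1407 FPKM in ICI 1, 56.4 in ICI 2, 47.9 in ICI 3 and 85.0 in ICI 4, and 3.20 in RI 1, 14.0 in RI 2, 5.63 in RI 4 and 24.0 in RI 5. Every RI tumour was below every ICI tumour, and ICI 1 was 16.5 times the next highest tumour. The means were 399 ± 672 FPKM (SD, n = 4) in ICI and 11.7 ± 9.42 (SD, n = 4) in RI. The log2 difference was -3.75 with a standard error of 1.08, and it passed the test narrowly (adjusted p = 0.0477). Without ICI 1 the difference was smaller, -2.62, and passed (adjusted p = 0.0275), and it also passed without ICI 3. The call ended when any 1 of the other 6 tumours, ICI 2, ICI 4, RI 1, RI 2, RI 4 or RI 5, was left out, with differences of -4.18 to -3.33 and adjusted p from 0.0610 to 0.116. The ratio of group means was 34.1 with ICI 1 and 5.39 without it.

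Short genes as a whole were lower in RI: among the 1333 tested genes of 45 to 781 bases, 199 were called lower and 26 higher, with a median log2 difference of -0.38. The excess of lower calls shrank with length, and among the longest genes, of 9174 to 41324 bases, 17 were called lower and 333 higher, with a median of 0.27. Igkc, the lambda constant genes and all variable segments have lengths within the shortest group, 45 to 781 bases. With the trend over gene length and GC content removed, Igkc differed by -3.43 and no longer passed (adjusted p = 0.0614), while 2 members, against a background of 9.4% of all genes called lower, still did: Igha (-2.56, adjusted p = 0.00884) and Iglc1 (-1.47, adjusted p = 0.0172). The call of Iglc1 adds no support, since only the ICI tumours brought it into the test.

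Lambda light chains were scarce in both groups. Iglc1 (chr16:19061618-19062071, 454 bases) measured 4.01, 3.60, 1.92 and 4.24 FPKM in ICI 1 to ICI 4, was at 0 in RI 1 and RI 2, and measured 0.303 in RI 4 and 0.827 in RI 5. A count of 0 fragments allowed up to 0.245 FPKM in RI 1 and 0.205 in RI 2, at a limit of 3 fragments. The groups did not overlap, ICI 1 was not the highest tumour, and the log2 difference was -1.80 with a standard error of 0.26 (adjusted p = 0.0115). Without ICI 1 the difference in Iglc1 was -1.73 (adjusted p = 0.00916), and it passed with each tumour left out in turn. As only the ICI tumours brought Iglc1 into the test, these calls add no support. Iglc2 had 5.51 FPKM in ICI 1 and 1.23 in ICI 4, and at most 0.460 in each of the other 6 tumours. Iglc3 had 5.04 FPKM in ICI 1 and at most 0.208 elsewhere. Both were too low for the test across genes, and single-gene exact permutation tests over the 70 ways to split the 8 tumours gave p = 0.20 for each, the smallest possible value being 0.0286.

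**Figure D1:**
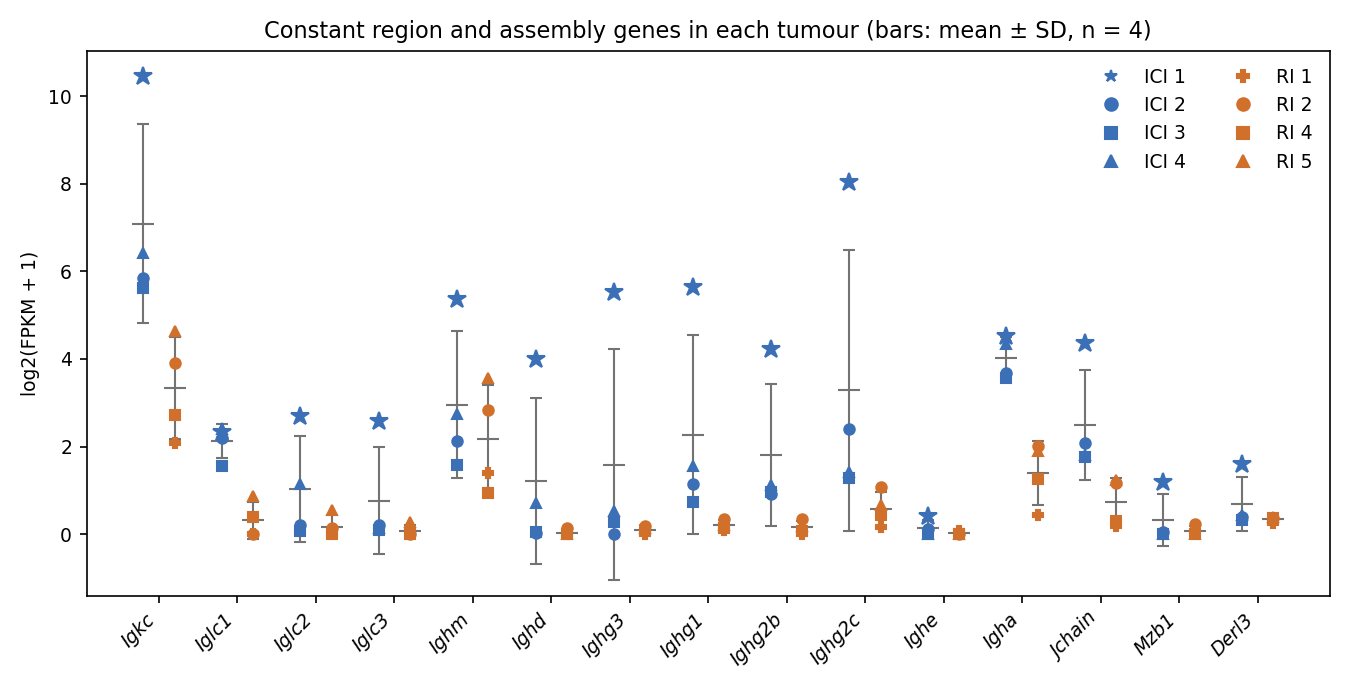
Level of each constant region and assembly gene in each tumour, as log2(FPKM + 1) on the vertical axis, with ICI tumours in blue and RI tumours in orange. Grey bars are the mean and SD of 4 tumours. ICI 1, the star, is the highest tumour for all genes plotted except Iglc1, and the RI tumours lie below all ICI tumours for Igkc, Iglc1, Ighg1, Ighg2b, Ighg2c, Igha and Jchain.

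Among the heavy chain constant genes, all on the minus strand of chromosome 12, Igha carried the clearest difference. Igha encodes the constant region of IgA, the antibody of mucosal secretions. It measured 21.8, 11.7, 10.8 and 19.1 FPKM in ICI 1 to ICI 4, and 0.347 in RI 1, 3.06 in RI 2, 1.39 in RI 4 and 2.73 in RI 5. The groups were separate, and ICI 1 lay close to ICI 4. The means were 15.9 ± 5.43 and 1.88 ± 1.25 FPKM (SD, n = 4 each). The log2 difference was -2.62 with a standard error of 0.37 (adjusted p = 0.0115), and -2.45 without ICI 1 (adjusted p = 0.0103). Igha passed with each of the 8 tumours left out in turn. It is 2668 bases long, and among the 1333 tested genes of 2372 to 3050 bases 95 were called lower and 77 higher, with a median log2 difference of -0.053.

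Ighm, the constant gene of IgM, overlapped between the groups. It measured 40.4, 3.37, 2.01 and 5.69 FPKM in ICI 1 to ICI 4, and 1.63, 6.15, 0.918 and 10.8 in RI 1, RI 2, RI 4 and RI 5. Leaving ICI 1 aside, the 2 highest values were in RI 5 and RI 2. The log2 difference was -0.77 with a standard error of 0.88 (adjusted p = 0.557). Without ICI 1 it was 0.03 (adjusted p = 0.979), so the sign itself rested on that tumour.

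The 4 IgG genes were dominated by ICI 1. Ighg2c measured 262 FPKM in ICI 1 and 4.30, 1.44 and 1.67 in ICI 2 to ICI 4, and 0.112, 1.10, 0.352 and 0.584 in RI 1, RI 2, RI 4 and RI 5. No RI tumour reached an ICI tumour, but the spread left by ICI 1 was wide, and the log2 difference was -2.71, standard error 1.37 (adjusted p = 0.192). Without ICI 1 the difference was -1.12 and passed the test (adjusted p = 0.0358), but without both ICI 1 and RI 4 it was -1.07 and did not (adjusted p = 0.0687). Of 21 alternatives it passed in that 1. Ighg2c is the form of this gene in the C57BL/6 strain, from which the reference is made, whereas 4T1 was derived from BALB/c mice, which carry Ighg2a in its place. Whether reads of an Ighg2a gene were placed elsewhere was not tested.

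Ighg1 and Ighg2b were too low for the test across genes, yet their groups were separate. Ighg1 measured 48.9, 1.22, 0.652 and 1.95 FPKM in ICI 1 to ICI 4, and 0.0714, 0.276, 0.0954 and 0.163 in RI 1, RI 2, RI 4 and RI 5. Ighg2b measured 17.7, 0.880, 0.946 and 1.17 FPKM in the ICI tumours, 0 in RI 1 and 0.279, 0.0513 and 0.140 in RI 2, RI 4 and RI 5. In both genes the lowest ICI tumour was above the highest RI tumour, and the exact permutation p was 0.0286, the smallest that 4 against 4 tumours allow. Those p-values are not adjusted for the number of genes examined, and both were above 0.05 with any 1 RI tumour left out. Ighg3 had 44.8 FPKM in ICI 1, 0.00987 to 0.449 in the other ICI tumours and at most 0.136 in RI, and its groups overlapped (exact permutation p = 0.143).

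The remaining isotypes were close to the limit of detection outside ICI 1. Ighd, expressed with Ighm by naive B cells, measured 15.1 FPKM in ICI 1, 0.643 in ICI 4, 0.0430 in ICI 3 and 0.0261 in ICI 2. In RI it measured 0.0982 FPKM in RI 2 and was at 0 in the other 3, where 3 fragments would be 0.0370 to 0.0585 FPKM (exact permutation p = 0.171). Ighe, the IgE gene, was highest at 0.326 FPKM in ICI 1, was at 0 in 5 tumours and showed no difference that passed (exact permutation p = 0.429).

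The proportions of the isotypes are given as a description. IgA made up 54.3%, 67.2% and 62.3% of summed heavy chain constant FPKM in ICI 2, ICI 3 and ICI 4, but 4.84% in ICI 1. In RI it made up 15.7%, 27.6%, 48.4% and 18.8% in RI 1, RI 2, RI 4 and RI 5. The IgG genes made up 82.8% in ICI 1, of which Ighg2c alone was 58.1%, with 17.1% to 29.6% in ICI 2 to ICI 4 and 6.83% to 19.7% in RI. The IgG genes were thus the largest part in ICI 1, and Igha was the largest in the other ICI tumours. Shares of FPKM depend on the exon lengths used, 1326 bases for Ighg2c, 2592 for Ighg1, 2668 for Igha and 1886 for Ighm. In fragments, Ighg2c held 11463 of the 26294 of heavy chain constant genes in ICI 1.

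Ighm took a larger share in every RI tumour than in any ICI tumour. It made up 8.95%, 15.5%, 12.5% and 18.6% of heavy chain constant FPKM in ICI 1 to ICI 4, and 73.9%, 55.4%, 31.9% and 74.4% in RI 1, RI 2, RI 4 and RI 5. The group means were 13.9 ± 4.13% and 58.9 ± 20.01% (SD, n = 4 each). A share is relative to the other isotypes, and the FPKM of Ighm itself did not differ by more than the test required. In RI 1 the heavy chain constant genes together held 119 fragments and in RI 4 they held 235, so these 2 shares are the least precise.

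**Figure D2:**
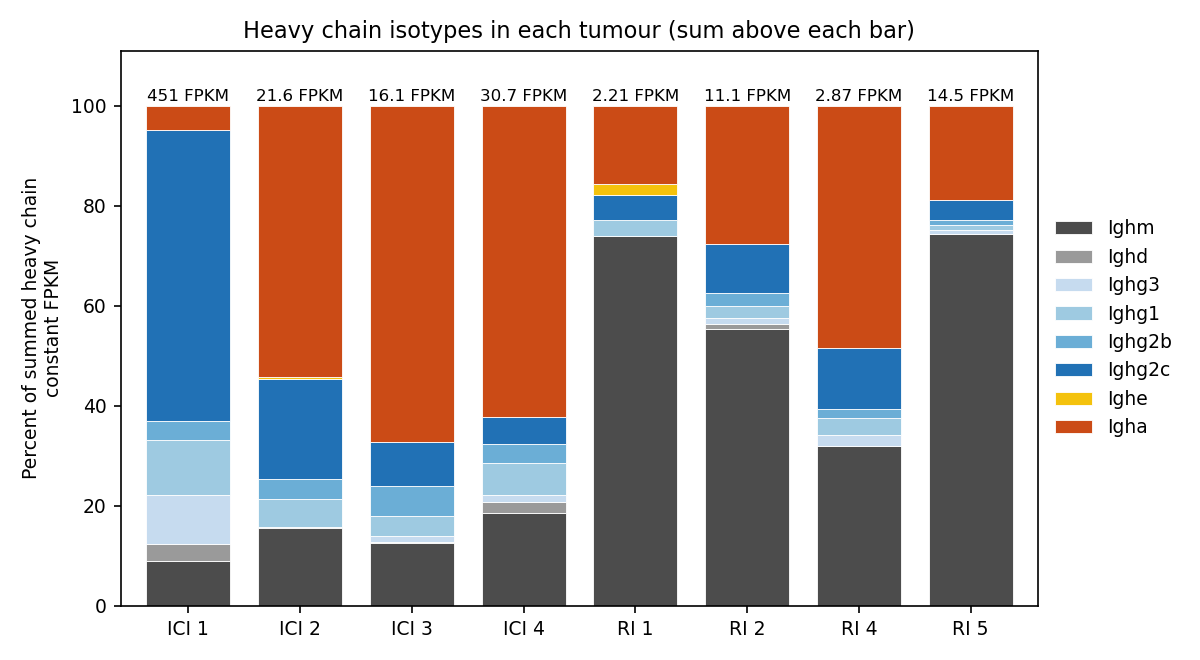
Share of each isotype gene in the summed heavy chain constant FPKM of a tumour, in percent, with the sum in FPKM printed above each bar. Ighm (dark grey) takes 31.9% to 74.4% in the RI tumours and 8.95% to 18.6% in the ICI tumours, Igha (red) is the largest part in ICI 2, ICI 3, ICI 4 and RI 4, and the IgG genes (blues) fill 82.8% of ICI 1.

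Of the 3 genes for assembly and secretion, Jchain was the only one tested. It measured 19.6 FPKM in ICI 1, 3.20 in ICI 2, 2.38 in ICI 3 and 2.48 in ICI 4, and 0.132 in RI 1, 1.24 in RI 2, 0.240 in RI 4 and 1.37 in RI 5. All RI values were below all ICI values, as for Igha, whose product it joins into dimers. The log2 difference, -1.77 with standard error 0.58, did not pass (adjusted p = 0.0666). It passed without ICI 1 (-1.15, adjusted p = 0.0250) and without both ICI 1 and RI 4 (-1.01, adjusted p = 0.0469).

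Mzb1 and Derl3 gave little signal. Mzb1 had 1.30 FPKM in ICI 1, 0.0408 in ICI 2, 0.0305 in RI 1 and 0.179 in RI 2, and was at 0 in the other 4 tumours (exact permutation p = 0.714). Derl3 measured 2.03 FPKM in ICI 1, 0.260 to 0.354 in ICI 2 to ICI 4 and 0.186 to 0.306 in RI (exact permutation p = 0.20). Outside ICI 1 neither gene separated the groups.

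**Figure D3:**
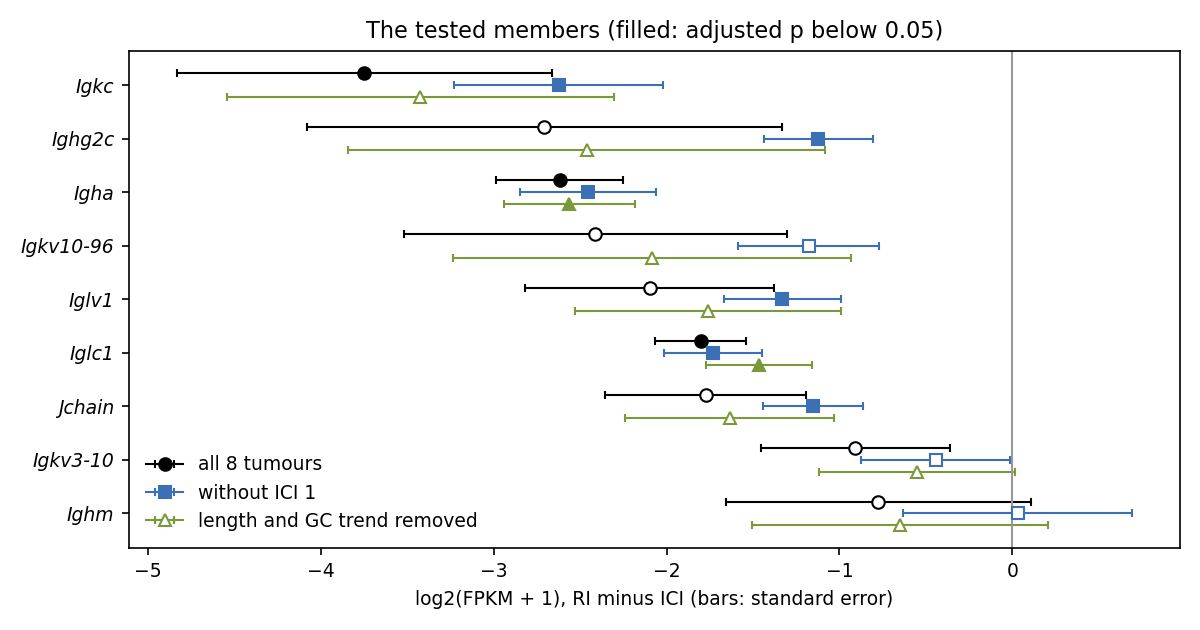
Log2 difference RI minus ICI, with its standard error, for the 9 members that were tested, from all 8 tumours (black), without ICI 1 (blue) and with the length and GC trend removed (green). Filled symbols passed an adjusted p of 0.05. Leaving out ICI 1 shortens the error bars, raises the number that pass from 3 to 6 and brings Ighm to 0.03.

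Variable segments were spread over many genes at low level. The 76 heavy chain segments lie between positions 113588267 and 115981134 of chromosome 12, the 84 kappa segments between 67609713 and 70704177 of chromosome 6, and the 3 lambda segments on chromosome 16. Their summed FPKM was 640 in ICI 1, 35.8 in ICI 2, 30.9 in ICI 3 and 45.2 in ICI 4, and 4.39 in RI 1, 23.0 in RI 2, 6.97 in RI 4 and 31.1 in RI 5. Unlike the summed constant genes, which ran from 66.1 to 1873 FPKM in ICI and from 5.41 to 40.0 in RI, the variable sums overlapped, since RI 5 was above ICI 3. The pseudogenes held 7.77 FPKM of the sum in ICI 1 and at most 1.65 in any other tumour.

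Kappa and heavy chain segments are given apart. Summed kappa segments measured 492, 27.3, 22.9 and 34.9 FPKM in ICI 1 to ICI 4 and 4.28, 15.1, 4.49 and 19.3 in RI 1, RI 2, RI 4 and RI 5, with no overlap. Summed heavy chain segments measured 120, 5.27, 5.72 and 8.37 FPKM in ICI and 0.105, 7.47, 2.48 and 9.51 in RI, so RI 2 and RI 5 were within or above the range of ICI 2 to ICI 4. In RI 1 the whole heavy chain variable locus held 1 fragment. Of the 84 kappa segments 76 had a lower mean in RI, and 58 did when ICI 1 was left out. Of the 76 heavy chain segments 50 had a lower mean in RI with ICI 1 and 30 without it, when 29 were higher.

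Of all 178 members, 17 had every RI value below every ICI value and 0 had every RI value above, where 6.06% of all 32098 genes were wholly below and 7.86% wholly above. Of the 17, 7 were the constant and assembly genes Igkc, Iglc1, Igha, Ighg1, Ighg2b, Ighg2c and Jchain, 8 were kappa segments, 1 was Ighv1-9 and 1 was Iglv1. The 8 kappa segments were Igkv1-135, Igkv1-99, Igkv17-121, Igkv3-4, Igkv4-58, Igkv5-39, Igkv6-23 and Igkv6-25, of which Igkv1-99, Igkv17-121, Igkv4-58 and Igkv5-39 were at 0 in all 4 RI tumours. Outside the rule for naming genes, these were chosen after their values were seen. Several rest on few fragments: Igkv4-58 had 7 in all 4 ICI tumours together, Igkv6-25 had 21 and Igkv17-121 had 38.

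Of the segments, 3 reached the test, and none passed it. Igkv10-96 measured 118 FPKM in ICI 1, 3.66 in ICI 2, 2.20 in ICI 3 and 2.95 in ICI 4, and 0 in RI 1, 1.30 in RI 2, 0.153 in RI 4 and 2.29 in RI 5 (log2 difference -2.41, standard error 1.11, adjusted p = 0.157). RI 5 lay within the ICI range, and without ICI 1 the difference in Igkv10-96 was -1.18 (adjusted p = 0.0747). Iglv1 measured 25.5, 2.73, 2.16 and 1.68 FPKM in ICI 1 to ICI 4, was at 0 in RI 1, RI 2 and RI 4, and measured 1.50 in RI 5 (log2 difference -2.10, standard error 0.72, adjusted p = 0.0750). It passed without ICI 1 (-1.33, adjusted p = 0.0266) but not without both ICI 1 and RI 4 (-1.22, adjusted p = 0.0542), and its reads may be shared with Iglv2. Igkv3-10 had 6.57, 1.09, 0.597 and 1.67 FPKM in ICI and 0.101, 2.56, 0 and 0.386 in RI (log2 difference -0.91, standard error 0.55, adjusted p = 0.263). Without ICI 1 its difference was -0.44 (adjusted p = 0.489).

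**Figure D4:**
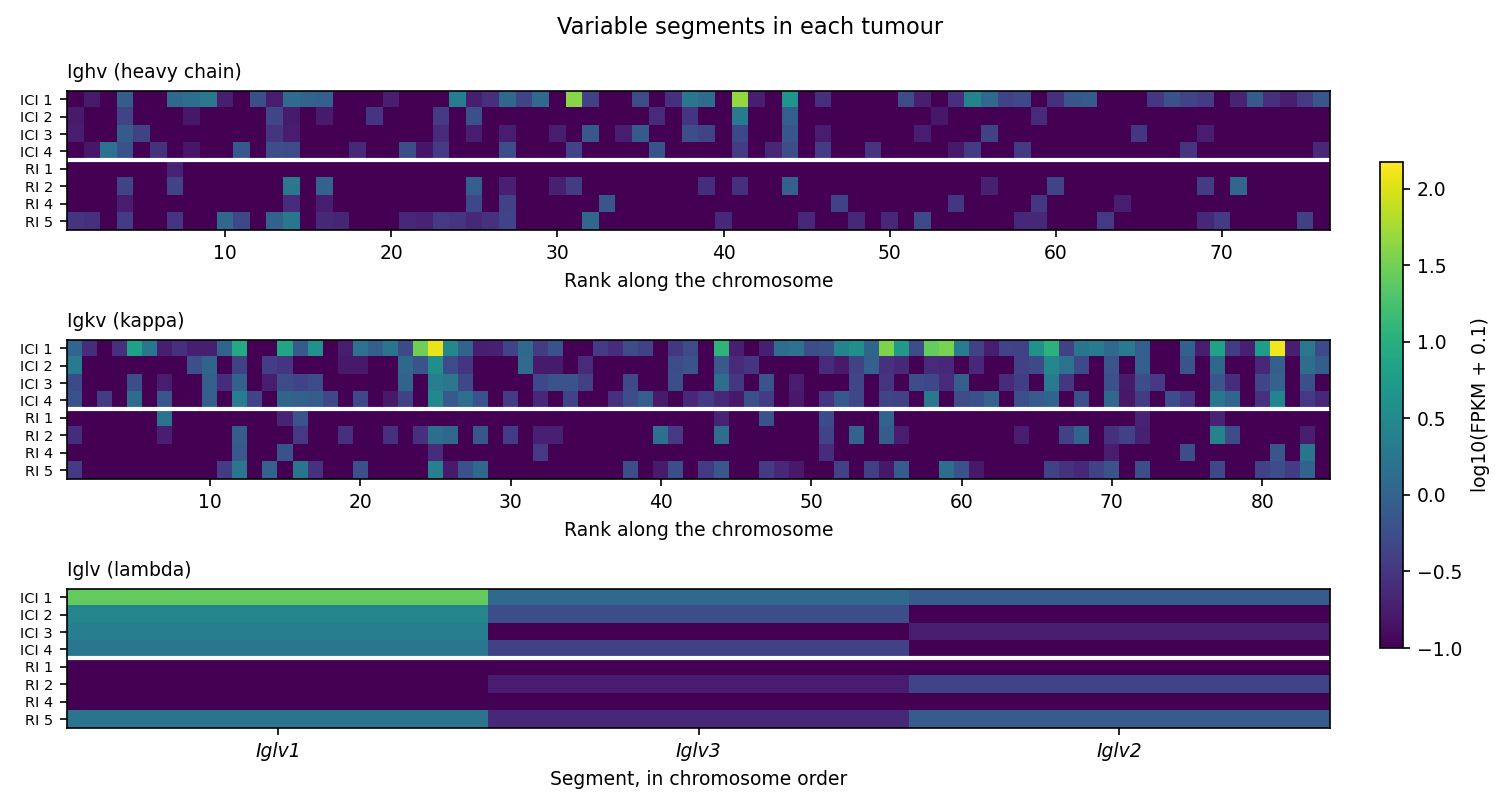
Each variable segment (columns, in order along its chromosome) in each tumour (horizontal bands, ICI above the white line and RI below), coloured by log10(FPKM + 0.1). ICI 1 is the brightest band in all 3 panels, single bright columns mark segments such as Igkv10-96 and Igkv3-4 at 118 and 133 FPKM, and RI 1 and RI 4 are nearly empty.

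In all, 5 segments led in the 8 tumours, and 1 of them, Igkv10-96, led in 4. In ICI 1 Igkv3-4 led with 133 FPKM, 20.6% of all variable segment fragments, followed by Igkv10-96 with 18.1% and Ighv1-9 with 47.7 FPKM and 7.19%. Its 5 highest segments held 58.4% of fragments, with 25.0% to 37.0% in the other ICI tumours, 88.6% in RI 1, 35.3% in RI 2, 59.1% in RI 4 and 28.8% in RI 5. Igkv10-96 led by FPKM in ICI 2, ICI 3, ICI 4 and RI 5, with 6.35% to 9.91% of fragments. In RI 1 the leader was Igkv14-126 with 14 of 44 fragments, in RI 2 Igkv3-10 with 30 of 269, and in RI 4 Igkv3-2 with 22 of 93. Ighv2-9 was second in both RI 2 and RI 5, at 1.72 and 1.69 FPKM, and measured 1.17 FPKM in ICI 1, 0.454 in ICI 4 and at most 0.152 in the others.

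Few segments were shared by most tumours. At 3 or more fragments, 124 of the 163 segments were found in at least 1 ICI tumour and 73 in at least 1 RI tumour, and 58 were found in both groups, 46.8% of those in ICI and 79.5% of those in RI. ICI 1 alone held 22 segments, 66 segments were in ICI only and 15 in RI only. None reached 3 fragments in all 8 tumours, and Igkv1-117 did so in 7, all except RI 1. The 15 segments of RI only held 3 to 15 fragments in the tumour that carried each: Ighv2-6-8 had 15 in RI 5, Igkv4-69 had 15 in RI 2 and Ighv13-2 had 8 in RI 4. At such counts a segment missed in ICI is not shown to be absent there. The same holds for the 66 segments of ICI only. Variable segments held 7667, 535, 418 and 709 fragments in ICI 1 to ICI 4, and 44, 269, 93 and 496 in RI 1, RI 2, RI 4 and RI 5.

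ICI 1, the tumour with the most antibody RNA, reached the most segments and RI 1, with the least, reached the fewest. At 0.1 FPKM or more, 104, 51, 52 and 74 segments were reached in ICI 1 to ICI 4 and 10, 35, 15 and 64 in RI 1, RI 2, RI 4 and RI 5, so the groups overlapped through RI 5. The means were 70.3 ± 24.9 and 31.0 ± 24.5 (SD, n = 4 each). When every tumour was reduced to 44 fragments, the number in RI 1, the expected numbers of segments were 17.3, 24.5, 27.8 and 29.6 in ICI and 10, 23.3, 15.4 and 27.6 in RI. At equal fragments ICI 1 ranked below the other ICI tumours, RI 2 and RI 5.

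Family use also varied, as far as the segments of the C57BL/6 reference show it. Ighv1, the largest heavy chain family here with 32 segments, held 53.5%, 57.7%, 39.7% and 26.2% of heavy chain variable fragments in ICI 1 to ICI 4, and 23.5%, 15.6% and 18.0% in RI 2, RI 4 and RI 5. RI 1 had 1 heavy chain variable fragment, from an Ighv5 segment. Ighv2 held 23.5% in RI 2 and 29.3% in RI 5, and 25.4% in ICI 4, against 6.25% or less in ICI 1, ICI 2, ICI 3 and RI 4. Among kappa families Igkv3 held 59.0% in RI 4 and 30.1% in ICI 1, and 2.33% to 20.1% elsewhere. Among families met in 1 group only, Igkv17 had 78, 14, 17 and 31 fragments in ICI 1 to ICI 4 and 0 in each RI tumour. Ighv6 had 5, 2, 9 and 8 in ICI and 0 in each RI tumour, and Ighv13 had 8, all in RI 4. These 3 were chosen after their values were seen. Ighv10, Ighv12, Igkv11 and Igkv20 were also met in ICI only and Ighv15 in RI only, each at 9 fragments or fewer in any tumour. With few variable fragments in RI, a 0 there does not show that a family was absent.

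Within a tumour the balance of light and heavy chain RNA differed between the groups, a measure chosen after the values were seen and given as a description. The ratio of light to heavy constant FPKM was 3.15, 2.79, 3.10 and 2.95 in ICI 1 to ICI 4, and 1.45, 1.27, 2.07 and 1.76 in RI 1, RI 2, RI 4 and RI 5. The ratio of Igkc to the summed kappa segments was 2.86, 2.07, 2.09 and 2.44 in ICI, and 0.748, 0.924, 1.25 and 1.25 in RI. Neither ratio overlapped between the groups, and ICI 1 lay close to the other ICI tumours in the first although its summed constant FPKM was 15.4 times the next highest. The genes in the first ratio differ in length, 532 bases for Igkc and 1326 to 2678 for the heavy chain genes, while Igkc and the kappa segments are all short. The part of gene length in these ratios was not tested.

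**Figure D5:**
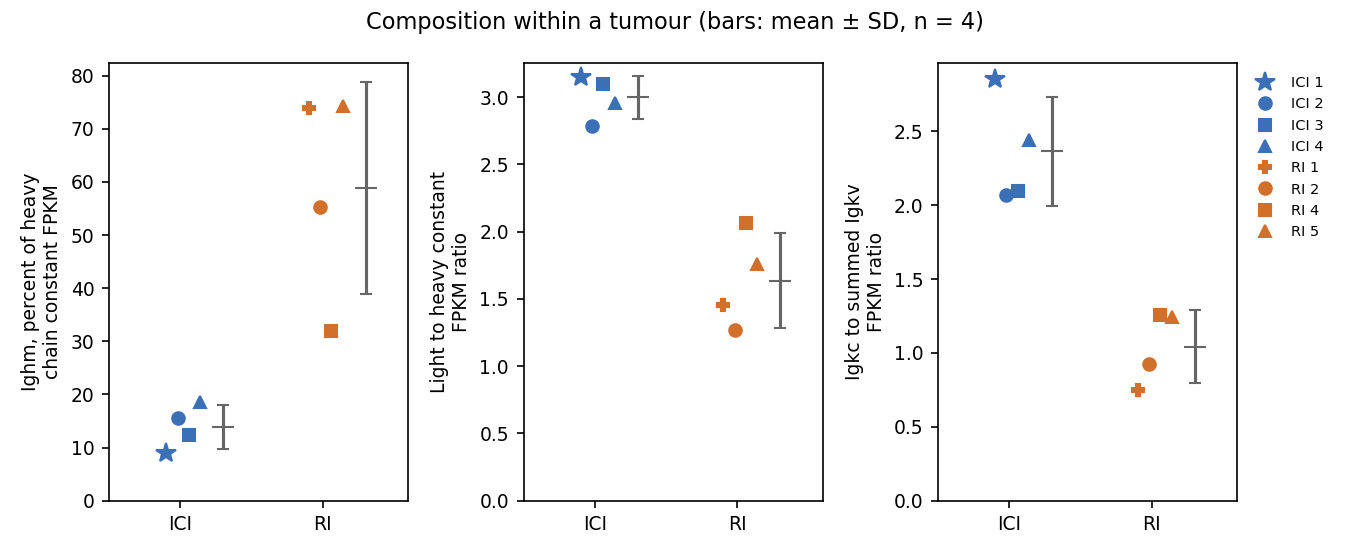
Ighm as a percent of heavy chain constant FPKM, the ratio of light to heavy constant FPKM, and the ratio of Igkc to summed Igkv FPKM, with 1 symbol per tumour and the mean and SD of 4 tumours beside them. The ICI and RI tumours do not overlap in any panel: Ighm lies at 8.95% to 18.6% against 31.9% to 74.4%, and the ratios at 2.79 to 3.15 against 1.27 to 2.07 and at 2.07 to 2.86 against 0.748 to 1.25.

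The B cell markers Ms4a1 and Pax5 were near 0 outside ICI 1. Ms4a1, which encodes CD20, measured 0.368 FPKM in ICI 1 and at most 0.0912 elsewhere, and Pax5, the B cell identity factor, 0.922 in ICI 1 and at most 0.180 elsewhere. Cd79a, a signalling chain of the B cell receptor, measured 9.56 FPKM in ICI 1, 2.43 to 5.16 in the other ICI tumours and 1.08 to 3.83 in RI (log2 difference -0.80, adjusted p = 0.157). Its partner Cd79b measured 5.20 FPKM in ICI 1, 0.399 to 1.20 in the other ICI tumours and 0.196 to 0.414 in RI (exact permutation p = 0.0571).

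The whole list of 20 B cell genes summed to 153 FPKM in ICI 1, of which 112 were Cd37, chosen here after its value was seen, and to 14.7 to 15.6 in the other ICI tumours and 11.1 to 17.4 in RI. Of its 6 tested genes 1 was higher in RI, Ralgps2 (log2 difference 0.66, adjusted p = 0.0438), and 0 were lower, with a median of 0.07. Of all genes tested 11.1% were called higher and 6.6% lower. With the length and GC trend removed Ralgps2 differed by 0.32 (adjusted p = 0.247). The call also ended with any 1 of the 8 tumours left out (adjusted p 0.0535 to 0.109). The summed B cell list of the 3 other ICI tumours thus lay within the range of the RI tumours, where their constant gene sums, 66.1 to 121 FPKM, were above the highest RI sum of 40.0.

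Genes of the plasma cell stage were mixed. Of 18 listed, 13 were tested, 2 were higher in RI and 1 was lower, with a median log2 difference of 0.16. Over all genes tested 11.1% were called higher and 6.6% lower. Sdc1, which encodes the plasma cell marker CD138 and is also made by epithelial and carcinoma cells, rose from 14.2, 24.6, 25.3 and 35.5 FPKM in ICI 1 to ICI 4 to 43.9, 44.2, 35.1 and 63.7 in RI 1, RI 2, RI 4 and RI 5 (log2 difference 0.91, adjusted p = 0.0479). Edem1, a factor that sends misfolded glycoproteins for degradation, was higher as well (0.52, adjusted p = 0.0207), but with the length and GC trend removed it differed by 0.29 and did not pass (adjusted p = 0.0679). Fkbp11, a folding enzyme abundant in secretory cells, fell from 12.6 to 14.5 FPKM in ICI to 6.55 to 10.6 in RI (-0.61, adjusted p = 0.0306).

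The more specific plasma cell genes were low. Tnfrsf17, the survival receptor BCMA, measured 0.186 FPKM in ICI 1 and 0.114 in RI 2 and was at 0 in the other 6 tumours. Irf4 measured 0.125 to 0.792 FPKM over the 8 tumours (exact permutation p = 0.80). Prdm1 (0.32, adjusted p = 0.309) and Xbp1 (-0.33, adjusted p = 0.199), transcription factors of the secreting cell that other cells of a tumour also express, did not pass. Pou2af1, a B cell coactivator, measured 4.62 FPKM in ICI 1 and at most 0.304 elsewhere (exact permutation p = 0.286).

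The folding and secretion genes that plasma cells use were made at high levels by all tumours, summing to 768 FPKM in ICI 1, 1372 to 1520 in the other ICI tumours and 1221 to 1462 in RI. All 20 were tested, with a median of 0.03. Of these, 2 were higher in RI and 0 lower, where 11.1% of all genes tested were called higher and 6.6% lower. The 2 were Dnajc3, an inhibitor of stress kinases (1.02, adjusted p = 0.0142), and Sel1l, a part of the degradation complex (0.62, adjusted p = 0.0183). With the length and GC trend removed Sel1l differed by 0.33 and did not pass (adjusted p = 0.0845). Without ICI 1 the list had 2 higher and 2 lower calls, where 1579 and 1114 of all 13439 genes tested were called. Without both ICI 1 and RI 4 the list had the same numbers, where 2044 and 1059 of all genes were called. The 2 lower were Manf and Sec61b, named after their values were seen. The share of this RNA made by antibody-producing cells was not measured.

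Factors that attract or sustain B cells gave 1 call. Cxcr4, the receptor for Cxcl12, which many leukocytes carry, fell from 22.1, 13.3, 12.5 and 12.1 FPKM in ICI 1 to ICI 4 to 6.24, 8.03, 6.95 and 4.52 in RI 1, RI 2, RI 4 and RI 5 (log2 difference -1.09, adjusted p = 0.0168). Of 16 genes listed 5 were tested, and 6.6% of all genes tested were called lower. Its ligand Cxcl12 measured 0.695 to 3.91 FPKM in ICI and 1.13 to 5.27 in RI (0.08, adjusted p = 0.913). Cxcl13, which draws B cells into follicles, measured 8.54 FPKM in RI 2 and 8.41 in RI 5, the RI tumours with the most antibody RNA, 3.09 in ICI 1 and 0.123 to 0.884 in the other 5 (exact permutation p = 0.229). The survival factors Tnfsf13b (BAFF, 0.116 to 1.02 FPKM, exact permutation p = 0.20) and Tnfsf13 (APRIL, 0.150 to 1.29 FPKM, exact permutation p = 0.114) were low throughout.

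Among genes that rearrange and mutate antibody genes, the calls were for general repair enzymes. Of 10 tested genes, 2 were higher in RI and 0 lower, with a median of 0.31: Exo1 (0.70, adjusted p = 0.0448) and Apex1 (0.82, adjusted p = 0.0498), both of which act in DNA repair in all dividing cells. Of all genes tested 11.1% were called higher and 6.6% lower. With the length and GC trend removed Exo1 differed by 0.41 and did not pass (adjusted p = 0.128). Among genes of antibody transport, Fcgrt, the heavy chain of the neonatal Fc receptor, rose (0.99, adjusted p = 0.0442), as the only call among 7 tested, beside the same 11.1% of all genes. Pigr, which carries IgA and IgM across epithelium, was at 1.82 FPKM in ICI 1, 0.415 in ICI 4 and at or near 0 elsewhere (exact permutation p = 0.429).

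Some marker genes of other cells were also lower in RI. Among 13 tested neutrophil genes 2 were lower in RI, S100a8 and S100a9, where 6.6% of all genes tested were called lower. The median log2 difference of the 13 was -2.65. Of the 13, 9 had an unadjusted limma p under 0.05, as did 4822 of all 13439 genes tested. S100a9 measured 12310 FPKM in ICI 1, 187 in ICI 2, 134 in ICI 3 and 352 in ICI 4, and 6.20 to 45.7 in RI (log2 difference -5.12, adjusted p = 0.0380), so all RI values were below all ICI values. The 4 tested erythroid genes had a median log2 difference of -3.47, and all 4 had an unadjusted limma p under 0.05. Of these, 2 were called lower, Hbb-bt and Hba-a1. The latter, an alpha globin, measured 60.3 to 394 FPKM in ICI and 0.289 to 27.4 in RI (-3.71, adjusted p = 0.0428). Of 7 tested T cell genes 1 was lower, Trac, the constant gene of the T cell receptor alpha chain (-1.01, adjusted p = 0.0211), while Cd3e overlapped (0.461 to 1.31 FPKM in ICI, 0.259 to 1.00 in RI, exact permutation p = 0.286). The 7 T cell genes had a median log2 difference of -0.31, and 1 had an unadjusted limma p under 0.05. The summed T cell list ranged from 20.1 to 49.2 FPKM in ICI and from 13.4 to 32.5 in RI. Krt10, a keratin of skin, was the 1 gene called lower among 5 tested epithelial genes (-0.86, adjusted p = 0.0227). The median of the 5 was -0.44, and 2 had an unadjusted limma p under 0.05. The share of fragments from the mitochondrial genome was 4.37% to 8.14% in ICI and 2.56% to 3.22% in RI. Without ICI 1, 8 neutrophil genes were called lower and 1 higher, and 0 of the 4 erythroid genes were called. In that fit 1114 of all 13439 genes tested were called lower and 1579 higher. Of the lymph node stroma list 0 of 4 tested genes were called, and of the plasmacytoid dendritic cell list 0 of 5. At an unadjusted limma p under 0.05, 0 genes of either list passed. The part of blood content, other cell types or RNA quality in the antibody differences was not tested.

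Most calls in these lists were sensitive to single tumours. Of the 16 list genes called, Cxcr4 and Dnajc3 passed with each of the 8 tumours left out in turn, and the other 14 lost the call at least once. Ralgps2 and Sdc1 passed with no tumour left out, Sdc1 at adjusted p from 0.0511 to 0.109. Apex1, Fcgrt, Hbb-bt and Hba-a1 passed for 1 of the 8 tumours left out, and Exo1, S100a8 and S100a9 for 2, with adjusted p up to 0.122. Fkbp11 passed for 4, Edem1, Sel1l and Trac for 5 and Krt10 for 6. With the length and GC trend removed Trac (-0.77, adjusted p = 0.101), S100a8 (-4.66, 0.0538), Hbb-bt (-2.78, 0.0589) and Hba-a1 (-3.29, 0.0555) did not pass. Without both ICI 1 and RI 4, Ralgps2 (adjusted p = 0.0563), Exo1 (0.0639), Hbb-bt (0.0949) and Hba-a1 (0.0751) did not pass.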

How the data were processed

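RNA sequencing of 8 tumours was given as 1 table of FPKM values that the authors deposited, with 1 column per tumour. Groups and replicate numbers came from the sample titles. The aligner HISAT2 and the build GRCm38 (mm10) were used per the submitters' processing notes, without a version. How reads were counted, with which annotation and strand setting, and how reads matching several genes were handled is not given in the sources used here. In the design text there are 3 replicates a group, whereas 4 a group are listed.

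Members and gene lists were chosen with earlier results of these data known. Identifiers were matched to GENCODE M21 on GRCm38 (31407 of 32098), which gave positions, exon lengths and sequences. Whole fragments could be recovered, because low FPKM values rise in equal steps: 98.6% to 98.8% of low values, and all 178 members, lay within 0.05 of a whole number. All 8 libraries differed by more than sampling noise (lowest chi-square per gene 32.8). Floors of 3 fragments cover counting error only.

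The difference RI minus ICI was fitted with limma 3.58.1 (R 4.3.3; eBayes with a trended, robust prior variance), two-sided, on log2(FPKM + 1), for the 13439 genes with at least 1 FPKM in 4 tumours. The pseudocount of 1 makes differences of low genes too small. Adjusted p-values are limma's, by the Benjamini-Hochberg method over all of them. In simulated data for this comparison with 13439 genes, 90.3% of genes shifted by 2 (log2) were recovered and 5.95% of calls were false. Single members below the limit were tested by exact permutation of the 8 tumours, two-sided. Sums, shares and counts of segments had no test. Genes named were all constant and assembly genes, the variable segments tested or among the 3 highest of a tumour, up to 6 called genes of each list, and fixed cell markers, some of which are not reported here. The lists hold 169 genes, 162 of them found. Alternatives were other filters, pseudocounts and scalings, a length and GC trend, voom on the recovered fragments, array weights, a replicate block and leaving out tumours.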

Additional observations from a re-analysis of the deposited data

Results flagged for a closer look

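In groups of 4, a tumour was picked out when its gap to the nearest other tumour took more of the group's range than Dixon's 95% limit allows. Of 80 pairs of group and measure, 32 were picked out, of which 18 were ICI 1. A chance rate of 1 in 20 groups cannot be applied to this number, so no excess over chance is claimed. A group with only 1 tumour above 0 is picked out by construction, as for Ighd in RI 2 and Ighv13-2 in RI 4. Some segments were included because they were among the highest of a tumour. Many of the measures also share the high values of ICI 1, so they are not independent.

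ICI 1 was far above the other ICI tumours in the summed constant genes (1873 FPKM) and summed variable segments (640 FPKM), Igkc (1407 FPKM), Ighg2c (262), Ighg1 (48.9), Ighg3 (44.8), Ighm (40.4), Ighg2b (17.7) and Ighd (15.1). It was equally apart in Iglc3 (5.04 FPKM), Jchain (19.6), Derl3 (2.03), Mzb1 (1.30), and in the segments Igkv3-4 (133), Igkv10-96 (118), Ighv1-9 (47.7), Igkv12-44 (36.2) and Iglv1 (25.5). Igha and Iglc1 were not among them. The neutrophil list summed to 24159 FPKM in the same tumour, and its part in these values was not tested.

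Single RI tumours stood apart at low levels. RI 2 was high in Mzb1 (0.179 FPKM), Ighd (0.0982), Ighv1-9 (0.177), Igkv3-10 (2.56) and Igkv4-69 (1.34). RI 5 was high in Iglv1 (1.50 FPKM), Igkv6-23 (0.318) and Iglc3 (0.208), RI 4 in Ighv13-2 (0.613), and RI 1 in Igkv14-126 (1.45) and Ighe (0.0467). RI 1 was low in Derl3 (0.186 FPKM). In the ICI group ICI 4 was high in Igkv14-126 (0.591 FPKM) and Igkv4-69 (0.0675). Several of these values, such as Ighe in RI 1, rest on 1 or a few fragments.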

How the results depend on the processing

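Over all genes 2373 were called, 241 with no filter, 280 on TPM, 4319 with array weights and 336 to 2693 with 1 tumour left out. Members called lower were 3 of 9 as reported, 1 of 10 with a mean of at least 5 FPKM (9.94% of all genes called lower), 5 of 9 with a pseudocount of 0.1 (6.21%), 5 of 9 with array weights (11.8%) and 2 to 6 of 9 with 1 tumour left out (0.692% to 8.29%), and 0 were called higher under any setting run. Replicate numbers did not pair the tumours (correlations of -0.09, -0.12 and -0.12 for numbers 1, 2 and 4). A replicate block left 22 calls over all genes and 1 among members (Iglc1, with 0.0446% of all genes called lower), and with the length and GC trend removed 3 and 0. The block's difference rests on numbers 1, 2 and 4 only, since ICI 3 and RI 5 have no partner number. Igha passed in 19 of 21 alternatives, Iglc1 in 19 of 20 and Igkc in 7 of 21. The calls of Iglc1, also that under the replicate block, add no support, since only the ICI tumours brought it into the test. Counts that include Iglc1, Ighg2c, Iglv1 or Jchain carry the limit given with the main result. Igkc failed on TPM (adjusted p = 0.286), with no filter (0.121), with voom (0.120) and with a pseudocount of 5 (0.0640).

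Constant and assembly genes below the limit with an exact permutation p under 0.05 numbered 2, and 0 to 3 with 1 tumour left out. With both ICI 1 and RI 4 left out an exact p cannot fall below 0.10. Ighm turned to higher in RI with array weights (0.15), without ICI 1 and RI 4 (0.44) and, with single tumours left out, ranged from -1.23 to 0.030. Mzb1 did so without ICI 1 and RI 4 (0.074) and ranged from -0.35 to 0.051. Cxcl12 turned lower with the length and GC trend removed (-0.19), the replicate block (-0.028) or both (-0.31), and ranged from -0.29 to 0.37. The log2 difference of summed constant genes was -3.66 (-4.16 to -2.55 with 1 tumour left out, -2.31 without ICI 1 and RI 4), and of summed variable segments -2.63 (-3.08 to -1.60, and -1.33). The mean difference in segments reached was -39.3, -13.8 at 1 FPKM and -5.71 at equal fragments, where fewer segments can be reached by construction. Low fragment numbers in RI 1 and RI 4 limit shares and segment use there. The cause of the other shifts was not tested.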
